A study of Lithobates clamitans with 20 samples.

Results

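The response of the gut transcriptome to heat in colonized tadpoles was described from 10 of the 20 libraries of the series, the 5 whose animal codes start with C32 and the 5 whose codes start with C22. The codes were read as C for colonized and 22 or 32 for the temperature in °C, so that C22 stands for cool colonized and C32 for warm colonized tadpoles. All were green frog (Lithobates clamitans) tadpoles, the offspring of a single pair of wild-caught adults, so the replicates are full siblings, and each was reared alone at 22°C. Colonized tadpoles grew up in water that contained untreated pond water from the site where the parents were caught. Depleted tadpoles grew up in water whose pond portion had been autoclaved. In earlier work of the authors, depleted tadpoles had gut microbiomes of lower diversity. Warm tadpoles were then moved to another chamber and spent 24 h there at 32°C, while cool tadpoles stayed at 22°C. Temperature therefore cannot be told apart from the chamber or the move. RNA came from part of the whole dissected gastrointestinal tract, 1 library per tadpole.

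The records of these tadpoles disagree. For the 5 C22 tadpoles the treatment fields and the code both give cool colonized, whereas the treatment fields of the 5 C32 tadpoles give cool (22°C) and depleted. In the ordination plot that the study printed from the same counts, judged by eye, the positions of the C32 libraries carry the symbol of warm colonized tadpoles. Groups here follow the code, and every direction below is C32 against C22. If the treatment fields were right, the same difference would be one of colonization at 22°C and not of heat. The records of the cool depleted tadpoles by code, used below for comparison, disagree too, since their treatment fields give warm and colonized.

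In animals, heat unfolds proteins, and cells answer by inducing heat shock proteins, which are chaperones that refold or clear damaged proteins, and by changing transcription, translation and metabolism. Tadpoles are ectotherms, so the gut takes on the temperature of the water. The gut is where most of the microbes of a vertebrate live, and they take part in digestion and in the supply of metabolites to the host. The genes of the table carry identifiers of the American bullfrog genome that were not paired with names or sequences in the sources used here, so heat shock proteins, cell type markers and pathways were not analysed here, and genes are described by their abundance, size of change and consistency over tadpoles. In bulk gut RNA, fewer cells of a type and less RNA per cell cannot be told apart.

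The deposited table holds 8477 genes, and library depth differed between the groups without overlap. The 5 C22 libraries held between 11102195 (C2208) and 19894322 counts (C2201), and the 5 C32 libraries between 20455267 (C3204) and 22442711 (C3210), a difference in means of 5757890 counts (exact permutation test, 2-sided, p = 0.00794, the smallest that 5 against 5 tadpoles allow, adjusted p = 0.0238 over 3 library measures). The share of counts in the 10 most abundant genes was 24.1 ± 5.76% (SD, n = 5) in C22 and 23.5 ± 2.33% in C32 (exact permutation p = 0.825). The number of genes without a count was 685.6 ± 90.4 in C22 and 654.6 ± 134.5 in C32 (exact permutation p = 0.675). Depth therefore moved with the group, and the comparison of genes was repeated with every library thinned at random to the 11102195 counts of C2208, with the values given beside the results.

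A test of the whole profile told the 2 groups apart. In a permutational multivariate analysis of variance on Bray–Curtis distances of the unscaled counts, which take in depth and weigh abundant genes most, the group accounted for 31.4% of the variation among the 10 libraries (F = 3.67, exact permutation p = 0.00794, the smallest that 5 against 5 tadpoles allow). With libraries thinned to equal depth F was lower, at 2.39, with the same p. At equal depth the Bray–Curtis distance between 2 tadpoles had a median of 0.183 over the 10 pairs within C32 (from 0.102 to 0.259) and of 0.282 over the 10 pairs within C22 (from 0.171 to 0.358). The 25 pairs that joined a C22 with a C32 tadpole had a median of 0.262 (from 0.171 to 0.353). On the unscaled counts these medians were 0.189, 0.297 and 0.295. By these medians, pairs that joined the groups were no farther apart than pairs within C22. The F also responds to unequal spread within groups, so a shift in profile and a difference in spread cannot be told apart by it.

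On the unscaled counts the distance from the group centroid was 0.165 in C2201, 0.128 in C2204, 0.227 in C2206, 0.169 in C2207 and 0.247 in C2208. Among warm tadpoles it was 0.0971 in C3204, 0.162 in C3205, 0.120 in C3207, 0.112 in C3208 and 0.113 in C3210. C2206 and C2208 were farthest out among the cool tadpoles and C3205 among the warm ones, and the groups overlapped. The means were 0.187 in C22 and 0.121 in C32 (exact permutation test, 2-sided, p = 0.0159), and at equal depth they were 0.169 and 0.118, a difference of −0.0505 that missed the threshold (exact permutation p = 0.0556). With all tadpoles and unscaled counts the difference was −0.0661. It shrank to −0.0396 without C2208 (exact permutation p = 0.111) and to −0.0460 without C2206 (exact permutation p = 0.103). Without C3208 it was slightly larger, at −0.0678, and also missed the threshold (exact permutation p = 0.0556). Fewer tadpoles allow fewer splits, so this last p need not reflect C3208. The size of the difference thus leaned most on C2208 and C2206.

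**Figure D1:**
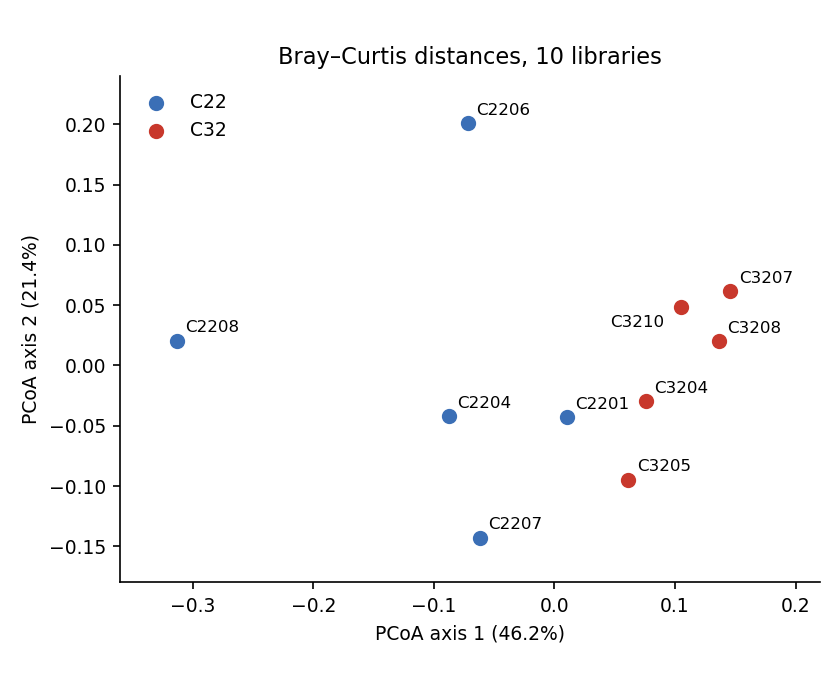
Principal coordinates of the Bray–Curtis distances between the unscaled counts of the 10 libraries, with groups by animal code. Each point is 1 tadpole, and the axes hold 46.2% and 21.4% of the variation. The 5 C32 tadpoles sit together at the right on axis 1, and C2206 and C2208 lie far from the other C22 tadpoles. These distances take in depth. C2208, the library with the fewest counts, lies farthest left, at −0.313. C2201, the C22 library with the most counts, lies at 0.010. Its mean distance was 0.213 to the C32 and 0.274 to the other C22 tadpoles. The part of depth in axis 1 was not tested.

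Gene by gene, the fitted difference was small for most genes. Over all 8477 genes the log2 fold change had a median of −0.01, the quartiles were −0.45 and 0.42, and 49.1% of the genes had a positive value. Such a balance is partly built in by edgeR's trimmed mean of M-values (TMM), the scaling that centres the libraries on each other. The median absolute log2 fold change was 0.43, a fold of 1.35. The median standard error was 0.33, so the typical difference was of the size of its error. At least a 2-fold difference was fitted for 1445 genes, 631 higher and 814 lower in C32, and 261 of these 1445 had groups that did not overlap. Scaling by total counts in place of TMM put the median of all genes at 0.03, still small beside the quartiles. The TMM factor was 0.630 in C2206 and between 0.893 (C3207) and 1.18 (C2207) in the other libraries. TMM therefore raised the normalized values of C2206 over its CPM by total counts more than those of any other library.

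edgeR's quasi-likelihood test called 50 genes, or 0.590% of the 8477, at a Benjamini–Hochberg adjusted p under 0.05, and edgeR adjusted p below stands for this test. Of these, 21 (0.248%) rose and 29 (0.342%) fell in C32 tadpoles. In all 50 every C32 tadpole lay on one side of every C22 tadpole, as in 558 (6.58%) of all genes. The same 10 libraries chose the 50, so their separation carries no test. The smallest adjusted p was 0.00609 and 30 of the 50 genes had an adjusted p over 0.03, close to the threshold. At an adjusted p under 0.1 there were 446 genes, 213 higher and 233 lower, and at an unadjusted p under 0.05 there were 1768 (20.9%), 842 higher (9.93%) and 926 lower (10.9%). When libraries were scaled by their totals, the same test called 16 genes, 5 higher and 11 lower, so that the share of called genes that were higher moved from 42.0% to 31.3%. With equal depth the test called 45 genes, 17 higher and 28 lower, and 40 of these were among the 50.

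The 48 called genes that had counts in both groups moved by between 0.87 and 4.88 on the log2 scale. The other 2 had no counts in C22, so their fitted values depend on the prior count and only a lower bound can be given. With these 2 at their bound the median of the 50 was 1.41. The 21 genes that rose, again with the bound, had a median log2 fold change of 1.31, a 2.48-fold increase, and the 29 that fell a median of −1.60, a 3.04-fold decrease. Changes under 2-fold were called in 3 genes, changes of 2-fold to 4-fold in 34 and changes of at least 4-fold in 13, of which 3 rose and 10 fell. Together the 21 genes that rose took 1688 ± 350 normalized CPM (counts scaled to library size by TMM; SD, n = 5) in C22 and 4763 ± 382 in C32 tadpoles. The 29 genes that fell took 4557 ± 881 in C22 and 1172 ± 223 in C32. These sums describe genes that the same comparison chose, so they carry no test.

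**Figure D2:**
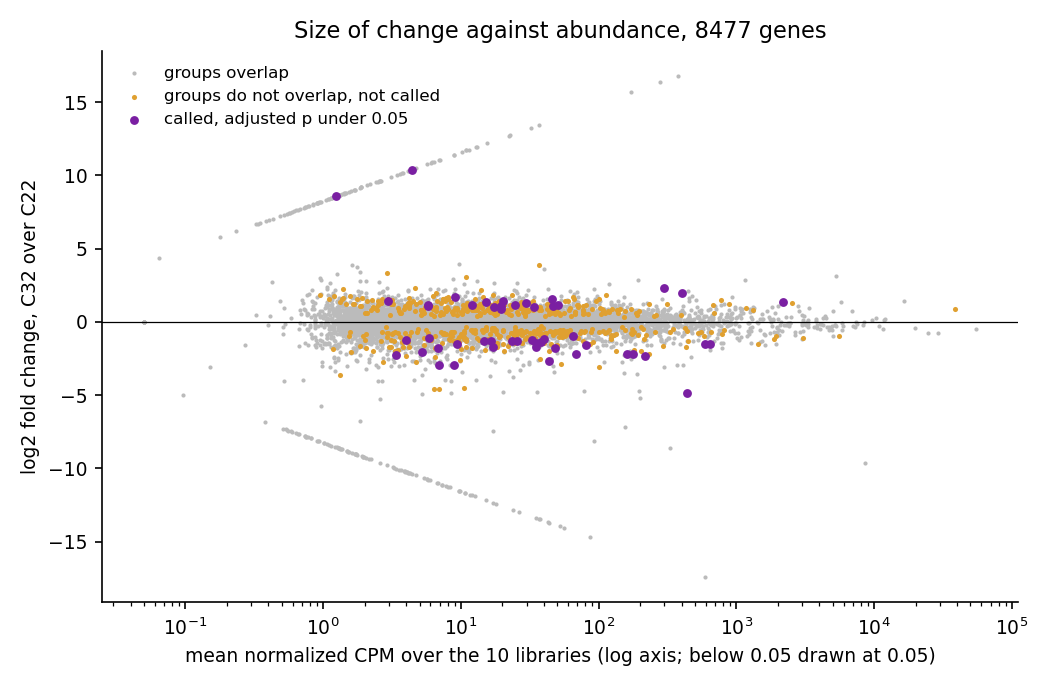
Log2 fold change of C32 over C22 tadpoles, groups by animal code, against the mean normalized CPM over the 10 libraries, 1 point per gene. The 50 called genes are spread over abundances and both directions, and the slanted lines of points at the top and bottom are genes at 0 in all 5 libraries of a group, whose fitted values depend on the prior count.

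Calls were more frequent among abundant genes. When the genes were ranked by mean CPM over the 10 libraries and divided into 5 classes of equal size, the 2 upper classes, from 17.4 CPM upwards, held 31 of the 50 called genes, and the lowest class, up to 3.22 CPM, held 2. The genes that fell had a median abundance of 34.8 CPM and those that rose 19.7 CPM, beside 11.4 CPM over all genes. The uppermost class, from 51.6 CPM, had 3 genes that rose and 9 that fell, and the class below it 10 and 9. The size of the fitted change did not increase with abundance. Its median was 0.54 on the log2 scale in the lowest class and between 0.41 and 0.43 in the other 4, while the median standard error was 0.58 in the lowest class and between 0.27 and 0.34 in the others.

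Consistency over tadpoles reached further than the calls. Groups did not overlap in 558 genes (6.58%), with all 5 C32 tadpoles above all 5 C22 tadpoles in 277 (3.27%) and below them in 281 (3.31%). Of these 558, 508 were not called, and 297 had a fitted difference of less than 2-fold. Their median absolute log2 fold change was 0.97. By abundance, the share of genes without overlap was 3.53% in the lowest class, then 4.96%, 6.91% and 9.33%, and 8.21% in the uppermost. In the 2 lowest classes more of them were higher than lower in C32, 37 against 23 and 46 against 38, whereas in the 2 upper classes more were lower, 86 against 72 and 80 against 59. With total counts as the scaling, 250 genes were above and 166 below. With equal depth there were 547 genes without overlap, 271 above and 276 below.

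**Figure D3:**
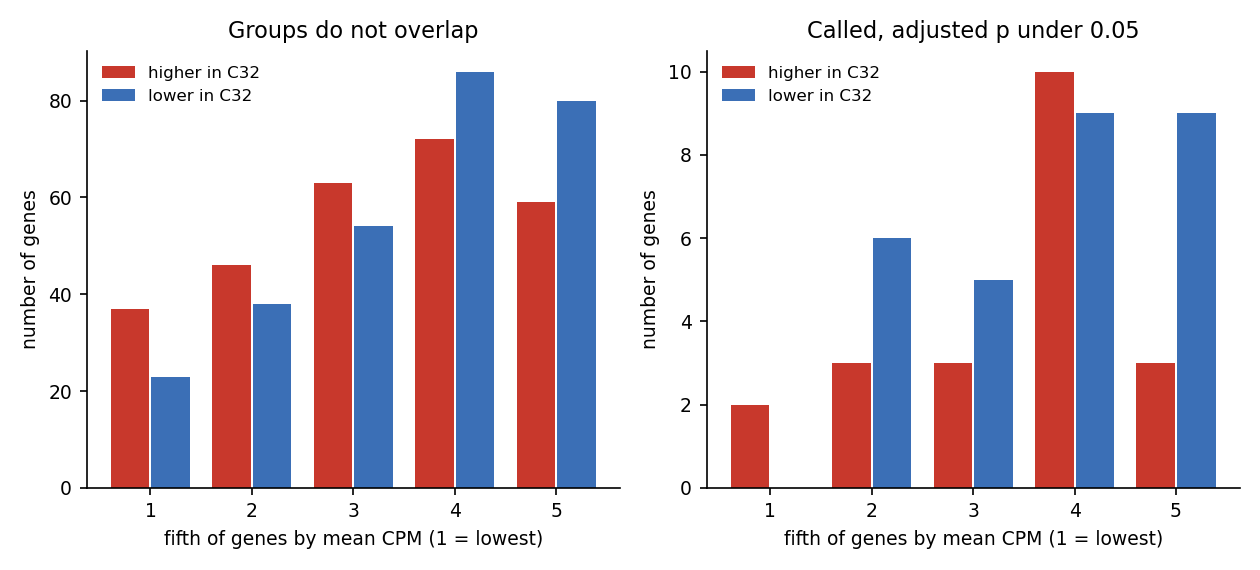
Number of genes in each of 5 abundance classes of equal size whose groups by animal code do not overlap (left) and that were called by edgeR's quasi-likelihood test (right). Red bars count genes higher and blue bars genes lower in C32, and both panels hold more genes in the 2 upper classes than in the lowest, where 60 genes did not overlap and 2 were called.

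The most abundant called genes are given by library, since their counts carry the least counting error. AB205_0000007, which ranked 81st of all genes in mean CPM, had 890.2, 1034, 1545, 910.3 and 1661 normalized CPM in C2201, C2204, C2206, C2207 and C2208. It had 3068, 3557, 2585, 3517 and 2827 in C3204, C3205, C3207, C3208 and C3210. Every warm tadpole lay far above the highest cool one. The means were 1208 ± 367 in C22 and 3111 ± 425 in C32 (SD, n = 5), a change of 1.36 ± 0.24 on the log2 scale (fitted change ± standard error, edgeR adjusted p = 0.0434). It was called in 2 of the 10 fits that each left out 1 tadpole, where its log2 fold change ran from 1.28 to 1.51 and its adjusted p from 0.0465 to 0.113, and it was not called with all 20 libraries in 1 fit (edgeR adjusted p = 0.115).

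AB205_0080320 had 174.5, 266.2, 178.3, 72.0 and 129.7 normalized CPM in the C22 tadpoles, in the same order. It had 742.3, 369.8, 696.3, 639.6 and 766.2 in the C32 tadpoles. C3205 was the lowest of the warm tadpoles, nearer to the highest cool tadpole than to the other 4 warm ones, and the groups did not overlap. The means of 164 ± 71.4 and 643 ± 160 differ by 1.97 ± 0.35 on the log2 scale (fitted change ± standard error, edgeR adjusted p = 0.0478). With 1 tadpole left out the log2 fold change ran from 1.80 to 2.24, and 8 of the 10 fits no longer called the gene (adjusted p up to 0.121 by the same edgeR test).

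AB205_0041460 had 1067, 841.2, 926.3, 1314 and 670.4 normalized CPM in the C22 tadpoles. It had 305.8, 470.9, 244.7, 387.5 and 243.8 in the C32 tadpoles. The lowest cool tadpole, C2208, and the highest warm one, C3205, came nearest to each other. The gene fell from 964 ± 243 to 331 ± 98.0, a change of −1.54 ± 0.27 on the log2 scale (fitted change ± standard error, edgeR adjusted p = 0.0434), and between −1.70 and −1.37 with 1 tadpole left out, 7 of those 10 fits losing the call (adjusted p up to 0.117).

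AB205_0060560 had 1039, 581.7, 1122, 893.0 and 721.5 normalized CPM in the C22 tadpoles. It had 263.2, 370.8, 266.0, 292.5 and 312.2 in the C32 tadpoles, which lay close together. Cool tadpoles spread over a wider range, with C2204 lowest. The gene fell from 871 ± 222 to 301 ± 43.9, a change of −1.53 ± 0.22 on the log2 scale (fitted change ± standard error, edgeR adjusted p = 0.0231). It ran from −1.62 to −1.43 with 1 tadpole left out, and 6 of the 10 fits lost the call (adjusted p up to 0.0929). With total counts as the scaling, the adjusted p by the same edgeR test was 0.0824 for AB205_0080320, 0.116 for AB205_0041460 and 0.0529 for AB205_0060560.

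**Figure D4:**
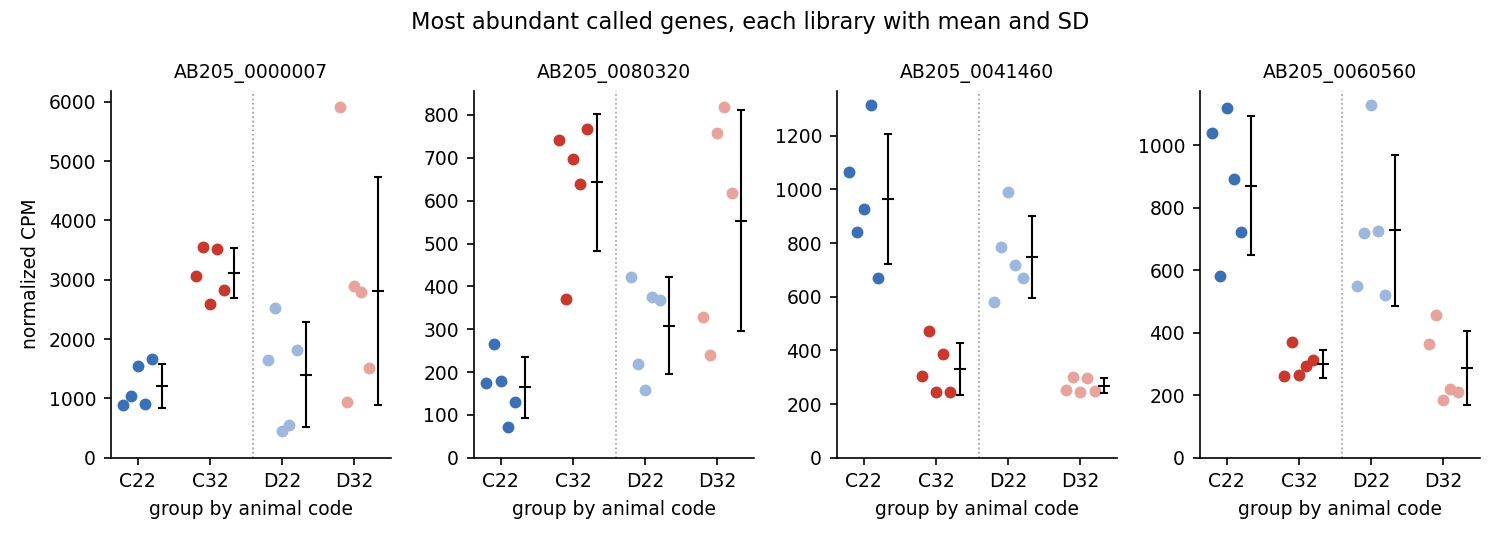
Normalized CPM of the called genes with the highest mean CPM, 2 that rose and 2 that fell, 1 point per library, with the mean and SD of 5 libraries beside them. Groups follow the animal code, the D22 and D32 libraries were scaled apart from the C22 and C32 libraries, and in all 4 panels C22 and C32 do not overlap.

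Among the 100 most abundant genes, from 1802 CPM upwards, change was mostly modest. The median absolute log2 fold change there was 0.35, beside 0.43 over all genes. At least a 2-fold difference was fitted for 13 of the 100 (8 higher and 5 lower in C32), beside 1445 of all 8477. Groups did not overlap in 7 of the 100 (3 higher and 4 lower), near the 6.58% of all genes. Of the 100, 1 was called, AB205_0000007, beside 0.590% of all genes. AB205_0169950, singled out after its values were seen because it was the second most abundant gene of the 10 libraries, had 31343, 28834, 22070, 27716 and 24725 normalized CPM in the C22 tadpoles. It had 44139, 43334, 52492, 54755 and 56146 in the C32 tadpoles. All warm tadpoles were above all cool ones, and the gene took between 1.39% and 3.45% of the counts in C22 and between 4.62% and 6.04% in C32 libraries. Its log2 fold change was 0.90 (standard error 0.17), and the edgeR adjusted p of 0.0546 missed the threshold. In the likelihood ratio test, the exact test and with total counts the adjusted p was 0.150, 0.171 and 0.158, and with 1 tadpole left out the edgeR adjusted p ran up to 0.140 (without C3207). It passed with limma voom (adjusted p = 0.0423), with DESeq2 (adjusted p = 1.39e-08), with all 20 libraries in 1 edgeR fit (adjusted p = 0.0340) and without C3205 (edgeR adjusted p = 0.0483).

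Most genes with a large fitted difference had overlapping groups. A difference of at least 4-fold was fitted for 407 genes, 157 higher and 250 lower in C32, of which 13 were called and 372 had overlapping groups. Of the 407, 333 had no counts in at least 1 of the 10 libraries. The most abundant gene of this kind, AB205_0062790, singled out after its values were seen, had 5.39, 16516, 41.7, 18.1 and 69424.5 normalized CPM in C2201, C2204, C2206, C2207 and C2208. It had 22.2, 5.06, 28.5, 50.2 and 3.48 in the C32 tadpoles. C2208 and C2204 were high by orders of magnitude, the other 8 tadpoles were low, and the groups overlapped. The gene took 7.05% of all counts in C2208 and 1.80% in C2204. Its log2 fold change of −9.62 had a standard error of 2.81 and an edgeR adjusted p of 0.108. The likelihood ratio test (adjusted p = 0.00659), the exact test of edgeR (adjusted p = 0.0118), DESeq2 (adjusted p = 2.74e-06) and the edgeR fit of all 20 libraries (adjusted p = 0.0247) called it, while limma voom put it at −3.48 (adjusted p = 0.467).

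Genes could also be absent from a whole group. No counts were found in any C22 tadpole, but some in C32, for 103 genes, and the reverse held for 102 genes. In 55 and 35 of these the counts came from 1 tadpole alone. Only 2 genes had no counts in all 5 C22 tadpoles and some in all 5 C32 tadpoles, none had the reverse, and both were called. The first had between 72 and 323 counts in C32 tadpoles, 8.87 ± 4.66 normalized CPM (SD, n = 5), at least 43.5-fold higher than a floor of 3 counts in each C22 library (edgeR adjusted p = 0.0139). The second had between 41 and 81 counts, 2.48 ± 0.628 normalized CPM, at least 12.2-fold higher than that floor (edgeR adjusted p = 0.0172). Among depleted tadpoles by code, the first was at 0 in 4 of 5 D22 and 1 of 5 D32 libraries, while the second was at 0 in 1 D22 and in 0 D32 libraries.

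Within groups, more genes varied more among C22 than among C32 tadpoles. The SD of log2 CPM over the 5 tadpoles had a median over genes of 0.52 in C22 and 0.44 in C32, and it was larger in C22 for 60.0% of the genes. With equal depth the medians were 0.52 and 0.45 and the share was 59.9%. Without C2206 the share was 54.4% and without C2208 it was 53.5%. The difference in spread was present in every abundance class, from 0.76 against 0.62 in the lowest to 0.51 against 0.37 in the uppermost.

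The number of calls changed with every tadpole left out. Each such fit has fewer tadpoles and so less power, and a lost call need not reflect the tadpole left out. In each of these fits all 50 genes kept the direction of their change. With all 10 tadpoles the groups overlapped in none of the 50, which all but fixed this beforehand, so it carries no test. Of the 50 genes, 7 were called in every one of the 10 fits that left out 1 tadpole. These 7, of which 1 rose and 6 fell, had absolute log2 fold changes from 1.12 to 4.88 and abundances from 6.95 to 441 CPM, and they are the 7 genes with an adjusted p under 0.01 by edgeR's quasi-likelihood test. The number of called genes rose to 127 without C3205, the warm tadpole farthest from its group centroid, and to 95 without C2204. It dropped to 10 without C3204, 9 without C3207, 13 without C3208 and 13 without C3210, and to 21 without C2201, 24 without C2206, 17 without C2207 and 25 without C2208. Without C3207, 1 gene was called as higher and 8 as lower in C32.

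**Figure D5:**
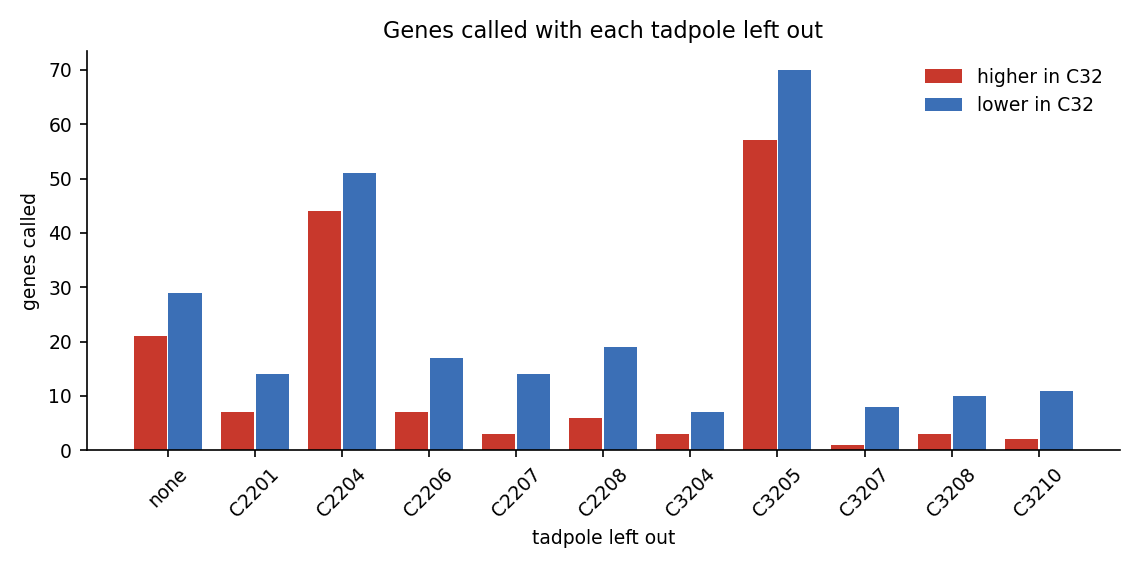
Number of genes called by the edgeR test between C32 and C22 tadpoles, by animal code, with all 10 tadpoles (none) and with each tadpole left out. Red bars count genes higher and blue bars genes lower in C32. Leaving out C3205 or C2204 gave more calls, and leaving out any other tadpole gave fewer.

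The same comparison in depleted tadpoles by code, D32 against D22, is the nearest counterpart. The treatment fields give warm and colonized for the D22 tadpoles, against their code, and warm and depleted for the D32 tadpoles. If the fields were right, this difference would be one of colonization among warm tadpoles and not of heat. The interaction below also takes its groups from the codes. For D32 against D22, edgeR's quasi-likelihood test called 1074 genes (12.7%), the median absolute log2 fold change was 0.59 and the median standard error 0.35, beside 0.43 and 0.33 in colonized tadpoles. With all libraries thinned to the depth of C2208 the counts were 984 and 45. DESeq2 called 1947 genes in depleted and 956 in colonized tadpoles, so the ratio of the counts depends on the tool. With 1 tadpole left out the edgeR counts ran from 401 to 1290 in depleted and from 9 to 127 in colonized tadpoles. The difference between the responses was tested per gene by the interaction over all 20 libraries, in which edgeR's quasi-likelihood test called 0 genes and 1097 had an unadjusted p under 0.05, beside 24 by the likelihood ratio test and 432 by DESeq2. Among the 50 genes called in colonized tadpoles, 6 had an unadjusted interaction p under 0.05, beside 12.9% of all genes, and the smallest adjusted p was 0.207. Of these 50 genes, 49 changed in the same direction in D32 against D22, and this share was not counted over all genes. The 7 of the 50 that stayed called whichever colonized tadpole was left out were all called in D32 against D22, in the same direction. A test that misses the threshold does not show that the responses were alike.

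For the genes given by library, levels in depleted tadpoles by code were measured in tadpoles that had no part in choosing them. AB205_0041460 had 749 ± 153 normalized CPM in D22 and 269 ± 27.3 in D32 (SD, n = 5), a change of −1.48 ± 0.19 on the log2 scale (fitted change ± standard error, edgeR adjusted p = 0.00766). AB205_0060560 had 729 ± 242 and 288 ± 118, a change of −1.34 ± 0.33 on the log2 scale (fitted change ± standard error, edgeR adjusted p = 0.0307). Both thus fell in D32 as well, without overlap between the groups. AB205_0000007 ran from 447.0 to 2531 in D22 and from 938.4 to 5916 in D32, and AB205_0080320 from 159.4 to 421.2 and from 241.0 to 819.7. The groups overlapped for both, and their log2 fold changes of 1.01 (standard error 0.60) and 0.84 (standard error 0.41) were not called (adjusted p = 0.296 and 0.193 by the same edgeR test). AB205_0169950 ran from 20847 to 38395 in D22 and from 31752 to 69083 in D32. Its groups overlapped, and its log2 fold change of 0.57 (standard error 0.26) was not called (edgeR adjusted p = 0.167). AB205_0062790, at up to 69424.5 CPM in a cool colonized tadpole, did not exceed 39.4 in D22 and 26.4 in D32.

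When the groups were taken from the treatment fields, warm colonized tadpoles were the 5 D22 libraries. Against the same C22 libraries, edgeR's quasi-likelihood test then called 0 genes. No adjusted p was below 0.0783, and the unadjusted p was under 0.05 in 995 genes. The log2 fold changes of D22 over C22 were 0.37 for AB205_0000007, 1.09 for AB205_0080320, −0.20 for AB205_0041460 and −0.09 for AB205_0060560. None of these was called (adjusted p from 0.336 to 0.950 by the same edgeR test). The C22 libraries serve in both comparisons.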

How the data were processed

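Guts of 20 tadpoles were sequenced (mRNA, TruSeq libraries), and the 10 libraries of codes C22 and C32 were compared. The authors used Trim Galore for trimming, BWA for mapping to a draft American bullfrog genome and StringTie for counting (versions not given in the sources used here). They deposited whole-number counts per gene after removing transcripts of low abundance. Each of the 8477 genes reaches 2 CPM in 3 or more libraries. Totals of 11102195 to 22442711 are therefore counts after this filter. Shares and floors cover counting error only, since reads carry no molecular identifiers.

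Counts were tested with edgeR 4.0.16 in R 4.3.3 (TMM over the 10 libraries, glmQLFit, glmQLFTest, Benjamini–Hochberg over all genes), after the methods were tested on simulated data. The study names edgeR but not which of its tests. Standard errors are |log2 fold change| divided by √F. Log2 CPM used a prior count of 2. PERMANOVA was enumerated over all splits into 5 and 5 libraries. Alternatives were DESeq2 1.42.0, limma 3.58.1, other edgeR tests, scalings, filters, thinning and each tadpole left out. Named genes are those with the highest mean CPM among called genes without overlap, 2 in each direction; 2 others were singled out after their values were seen. The comparison, the rule and the tests were chosen with earlier results of these data known. No gene names, sequences or metagenome data were used here.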

Additional observations from a re-analysis of the deposited data

Results flagged for a closer look

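In C32 tadpoles, the summed abundance of the 21 genes that rose was 5433 normalized CPM in C3208, apart from the other 4 tadpoles, which lay between 4479 and 4668. All 5 values were above the highest C22 tadpole, at 2051, which follows from the choice of the genes by the same comparison and carries no test. In C22 tadpoles, AB205_0062790 had 69424.5 normalized CPM in C2208, against 16516 in the next highest tadpole and 5.39 in the lowest. These gaps to the next value took 0.803 and 0.762 of the range of the 5 values. The threshold of 0.71 is passed by chance in about 1 in 20 groups if values are normally distributed, which was not tested here. The gap was examined in 34 groups of 5 values.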

How the results depend on the processing

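The number of called genes was within 1.5 times of 50 with robust quasi-likelihood (50), RLE (53), upper quartile scaling (51), thinning (45) and a minimum absolute log2 fold change of 1 (47). It moved to 956 with DESeq2 (439 higher and 517 lower), 257 by likelihood ratio (106 and 151), 210 in the exact test (86 and 124) and 120 with limma voom (49 and 71). It also moved to 16 with total counts (5 and 11), 102 with either filter on low counts (46 and 56), 254 with all 20 libraries in 1 fit (116 and 138), and 7 at an adjusted p under 0.01 (1 and 6). By the treatment fields edgeR's quasi-likelihood test called 0 genes. With 1 tadpole left out the count ran from 9 to 127 (1 to 57 higher and 7 to 70 lower).

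With the number in the animal code as a replicate block, edgeR's quasi-likelihood test called 0 genes, with 865 at an unadjusted p under 0.05. Only 3 numbers occur in both groups, so this fit compares the groups only within those 3. The deviations of the tadpoles that share a number correlated at 0.02, 0.08 and 0.01, and those of tadpoles with different numbers at −0.161 to 0.079. With 3 shared numbers these values cannot decide whether the numbers pair the tadpoles.

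Genes without overlap between the groups ran from 621 to 979 with 1 tadpole left out (317 to 522 above and 304 to 457 below), and total counts gave 166 below. Fewer tadpoles separate more easily, so a rise above the 558 of all 10 tadpoles is built into leaving 1 out. The PERMANOVA kept its side of the threshold under every alternative, with F from 1.36 for log2 CPM to 4.19 without C2206. The difference in centroid distance was −0.0506 with CPM, −0.0216 with square roots of CPM, −8.32 with log2 CPM on the Euclidean scale and −0.0505 with thinning (exact permutation p from 0.0556 to 0.0873), and from −0.0837 to −0.0396 with 1 tadpole left out. Differences in the share of the 10 most abundant genes ran from −2.15 to 1.02 percentage points and in genes at 0 from −69.9 to 10.2 with 1 tadpole left out, and changed sign. The median absolute log2 fold change ran from 0.41 to 0.48. For D32 over D22, DESeq2 called 1947 genes and leaving out 1 tadpole gave 401 to 1290. The interaction had 24 genes by the likelihood ratio test, 432 by DESeq2 and 0 without any 1 C22 or C32 tadpole by edgeR's quasi-likelihood test. The causes of these differences were not tested. All tadpoles came from 1 pair of frogs, so the values describe this sibship.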
